A study of Mus musculus with 141 samples.

Results

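The read counts of 9 genes of the fibroblast growth factor (FGF) pathway, of 17136 genes counted, are described here in sorted mouse lung epithelial cells. They are 3 receptor genes (*Fgfr1*, *Fgfr2* and *Fgfr3*) and 6 genes whose proteins hold the pathway back (*Spry1*, *Spry2*, *Spry4*, *Dusp6*, *Spred1* and *Spred2*). The genes were chosen by name and not by a limit on their values, but with earlier results of these data known. The cells came from the lungs of 1 male mouse of 4 months, given the strain label 129SV and the genotype ACID;R26tdTomato. In this genotype Cre recombinase and DsRed are knocked into *Aqp5*, a water channel gene of alveolar type 1 cells, and Cre removes a stop before the red protein tdTomato, so the mark stays on any cell that used *Aqp5* once. Cells without CD31 and CD45 (endothelial and blood cell proteins) and with E-cadherin and tdTomato were sorted and captured singly on a Fluidigm C1 chip. There was no untreated or wild-type group, and every cell shares this mouse, genotype, sort and chip, so the cells are 1 sample and no test between animals was possible. Intervals below cover counting error only: exact Poisson intervals for read counts per 1000000 reads (CPM) and exact Clopper-Pearson intervals for shares of cells, at 95%. Reads were counted after PCR without molecular identifiers and are not independent molecules, so these intervals are too narrow.

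Of the cells deposited, 92 had a mitochondrial share of reads under 0.15 and were kept, and 49 were left out. Classes were set by marker level: type 1 cells had at least 5000 CPM of *Ager*, a receptor gene high in flat alveolar type 1 cells, and type 2 cells at least 8000 CPM of *Sftpc*, which encodes surfactant protein C. This gave 45 type 1 cells (48.9%, interval 38.3 to 59.6%), 11 type 2 cells (12%, 6.12 to 20.4%) and 36 other cells (39.1%, 29.1 to 49.9%), and no cell passed both limits. The type 1 cell nearest the limit had 9335 CPM of *Ager* and the highest cell outside had 1402 CPM, while for *Sftpc* these values were 25437 and 7774 CPM. GEO's label calls every cell alveolar type 1, which the markers do not bear out. All 45 type 1 cells had the list of type 1 markers as their highest of 6 lists and all 11 type 2 cells the type 2 list, whereas the 36 others were led by club (14 cells), ciliated (12), basal (7), fibroblast (2) or type 2 markers (1). The lead over the next list was under 1 log2 unit in 3 of the 7 cells led by basal markers and in 1 of the 14 led by club markers. Kept cells held 142003 to 2170760 reads, with medians of 468718 in type 1, 413806 in type 2 and 693389 in the other cells. The 10 dissociation stress genes summed to 1338 CPM in type 1 cells, 3784 CPM in type 2 cells and 6459 CPM in the others, with ranges over cells of 5.45 to 5531, 228 to 15569 and 625 to 18644 CPM. Their part in the differences below was not tested.

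FGF ligands bind receptor tyrosine kinases at the cell surface, and the receptors pass the signal through docking proteins and Ras to the ERK kinases. Sprouty and Spred proteins hold back the steps between receptor and ERK, and DUSP6 removes the phosphates from ERK. Several of these inhibitors are themselves switched on by the signal, which makes them feedback genes, and in the lung the pathway is known for its part in branching and in the upkeep of the alveolar epithelium.

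*Fgfr2*, the main receptor of epithelial cells for the ligands FGF7 and FGF10, was the receptor with the widest use (chromosome 7, 130162451 to 130266808, minus strand, RefSeq on GRCm38). Its summed level was 76.4 CPM (72.9 to 80.1) in type 1 cells, 52.6 CPM (47.2 to 58.5) in type 2 cells and 82.1 CPM (78.7 to 85.6) in the others. Single type 1 cells ran from 0 through a median of 0 to 1872 CPM, type 2 cells from 0 through 6.48 to 277 CPM, and the other cells from 0 through 2.86 to 1076 CPM, so the 3 classes overlapped fully. A type 1 cell at chip column 19, row 39 held 40.1% of the type 1 reads, and without it the type 1 level was 46.5 CPM. The log2 ratio of type 1 over type 2 then moved from 0.54 to -0.18, and neither class can be called higher. With a mitochondrial limit of 0.10 that ratio was -2.03 and the ratio over the others was -1.96 instead of -0.10.

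The cells outside the alveolar classes were not alike for *Fgfr2*. All 7 cells led by basal markers had at least 5 reads, with a summed level of 249 CPM (235 to 262) and 176 CPM without the highest cell. The 14 cells led by club markers had 72.4 CPM, with 5 or more reads in 6 cells. The 12 cells led by ciliated markers had 1.96 CPM (1.05 to 3.36), from 13 reads in 4 cells.

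*Fgfr3* (chromosome 5, 33721724 to 33737068, plus strand) was higher in the other cells than in either alveolar class. It stood at 15 CPM (13.5 to 16.7) in type 1 cells, 23.2 CPM (19.6 to 27.2) in type 2 cells and 178 CPM (173 to 183) in the others. Single cells ran from 0 to 882, 359 and 2283 CPM in these classes, with a median of 0 in each, so the groups overlapped and the difference lay in a minority of cells. The log2 ratio of type 1 over the others was -3.57 (-3.73 to -3.41) and -3.05 without the cell with most reads, and that of type 2 over the others was -2.94 (-3.19 to -2.71) and -2.42. Both stayed past 2-fold under all 14 alternatives tried. Again the cells led by basal markers were highest, with 589.7 CPM (569 to 611) and 5 or more reads in 4 of 7. Their median was 16.3 CPM, and 1 cell held 49.9% of their reads, leaving 339 CPM without it. The basal list led in that cell by only 0.20 log2 units. A single type 2 cell held 90.7% of the reads of that class, which otherwise stood at 2.30 CPM.

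*Fgfr1* (chromosome 8, 25518759 to 25575718, plus strand), a receptor best known from mesenchymal cells, had 3 reads in all type 1 cells together and none in type 2 cells. These are 0.130 CPM (0.0267 to 0.379) and a limit of 0.463 CPM, the level of 3 reads (exact interval to 0.570 CPM), so no ratio between them is given. The 36 other cells had 36.1 CPM (33.9 to 38.5), from 5 or more reads in 7 cells. This is a log2 ratio of type 1 over the others of -8.12 (-10.40 to -6.57). With type 2 cells set at 3 reads, their level was 78-fold lower than that of the others. That is a log2 ratio of -6.29, with an exact interval up to -5.98. The 2 cells led by fibroblast markers had 179.5 CPM (164 to 196) and the 12 led by ciliated markers had 1 read in all. Without the 2 cells led by fibroblast markers the ratio of type 1 over the others was -7.31. Thinned to 90000 reads per cell the gene had too few reads for a ratio to count, with a value of -5.16.

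*Spry1* (chromosome 3, 37639947 to 37644599, plus strand), a Sprouty gene, was the feedback gene with 5 or more reads in the most cells of both alveolar classes, 31 of 45 type 1 and 9 of 11 type 2 cells. Its summed level was 315 CPM (307 to 322) in type 1 cells, 191 CPM (181 to 202) in type 2 cells and 72.4 CPM (69.3 to 75.7) in the others. Type 1 cells ran from 0 through a median of 167 to 1177 CPM, type 2 cells from 0 through 124.6 to 2137 CPM, and the other cells from 0 through 1.98 to 648 CPM. Reads were found in 36 of 45, 9 of 11 and 20 of 36 cells. Most alveolar cells were thus high and most of the others low, yet each class also held cells without a read. The highest type 1 cell held 10.6% of the type 1 reads, so that the level did not rest on it.

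The log2 ratio of type 1 over the others was 2.12 (2.05 to 2.19) and 2 without the cell with most reads, and that of type 2 over the others was 1.40 (1.30 to 1.51) and 1.81. Within the chip columns that held a type 2 cell, these ratios were 1.14 and 0.37. There the type 2 ratio was under 2-fold, and the type 1 ratio did not stay past 2-fold without the cell with most reads. Over all columns, the cell left out of the type 2 ratio was one of the others. The highest type 2 cell held 30% of the type 2 reads. Without it type 2 cells stood at 137.7 CPM, under 2-fold above the 72.4 CPM of the others. Between type 1 and type 2 cells the ratio was 0.72 (0.63 to 0.80), close to the median of 0.80 over all genes tested, and the mean of the single-cell values gave -0.22. No order of the alveolar classes can therefore be given for *Spry1*. Among the other cells, those led by basal, club and ciliated markers had 120.4, 96.4 and 19.9 CPM, and the 2 led by fibroblast markers had no read.

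*Spry2* (chromosome 14, 105891947 to 105896819, minus strand) had its highest summed level in type 2 cells. It stood at 17.7 CPM (16.1 to 19.5) in type 1 cells, 73.6 CPM (67.2 to 80.6) in type 2 cells and 28.8 CPM (26.8 to 30.9) in the others. Type 1 cells ran from 0 through a median of 0 to 354 CPM, type 2 cells from 0 through 11.5 to 877 CPM, and the other cells from 0 through 0 to 604 CPM. Reads were present in 14 of 45 type 1 cells and 9 of 11 type 2 cells. The groups overlapped, and a single type 1 cell held 68.8% of the type 1 reads, leaving 5.73 CPM without it. The log2 ratio of type 1 over type 2 was -2.05 (-2.25 to -1.86) and -3.68 without that cell. Over the chip columns that held a type 2 cell it was -1.02, and over these columns the ratio of type 2 over the others turned from 1.35 to -0.23. The highest type 2 cell held 35% of the type 2 reads, and without it that class stood at 49.3 CPM.

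The 250 bases before the start of both genes are shown because *Spry1* and *Spry2* are close relatives. They are RefSeq sequences on GRCm38.p6, at chr3:37639697-37639946 on the plus strand and chr14:105896820-105897069 on the minus strand, with each CG dinucleotide in capitals.
Spry1: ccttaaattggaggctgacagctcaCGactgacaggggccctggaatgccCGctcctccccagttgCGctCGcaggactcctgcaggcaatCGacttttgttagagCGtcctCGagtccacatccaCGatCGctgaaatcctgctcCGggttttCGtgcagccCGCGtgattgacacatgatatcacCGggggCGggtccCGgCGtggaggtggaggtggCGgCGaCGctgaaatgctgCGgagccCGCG
Spry2: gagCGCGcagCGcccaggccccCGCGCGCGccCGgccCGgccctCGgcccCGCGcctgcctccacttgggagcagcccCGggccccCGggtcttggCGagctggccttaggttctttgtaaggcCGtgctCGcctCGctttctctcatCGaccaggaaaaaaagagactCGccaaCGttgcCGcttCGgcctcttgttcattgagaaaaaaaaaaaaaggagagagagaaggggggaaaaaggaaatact
Each held 23 CG dinucleotides and 62.4% G or C, against medians of 6 and 52.4% over all 32851 such windows, and 86.7% of windows had fewer CG. Windows were found for 7 of the 9 genes and no window of *Fgfr1* or *Spry4* was used. Across these windows CG counts ran from 2 (*Fgfr2*) to 31 (*Spred1*). The motif CCGGAA, a core bound by ETS factors, was searched on both strands (TTCCGG on the other), was in none of the 8 windows of these genes, and was in 12% of all windows. No match says only that these letters are not in this stretch.

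*Spry4* (chromosome 18, 38586247 to 38601347, minus strand) was nearly without reads, with 1 read in type 1 cells and none in type 2 cells, where 3 reads would be 0.463 CPM and the exact interval runs to 0.570 CPM. The other cells stood at 4.70 CPM (3.91 to 5.59), and a single cell led by club markers held 97.6% of these reads. With reads in 3 cells in all it missed the limit for a ratio, 100 reads in at least 5 cells, and the other 8 genes passed.

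*Spred2* (chromosome 11, 19924442 to 20024026, plus strand), whose protein brings the Ras inhibitor neurofibromin to the membrane, had the ratio furthest from 0 between the alveolar classes. It had 1.77 CPM (1.27 to 2.40) in type 1 cells, 61.3 CPM (55.4 to 67.6) in type 2 cells and 44.3 CPM (41.8 to 46.8) in the others. Of 45 type 1 cells, 1 cell at 129.9 CPM held 95.1% of the reads and 2 further cells had fewer than 5 reads. Of 11 type 2 cells, 5 had reads, 3 of them at least 5, and the highest stood at 337 CPM. The median cell had none in each class and the classes overlapped at 0. The log2 ratio of type 1 over type 2 was -5.11 (-5.61 to -4.65) and -4.02 without the cell with most reads. The level of the other cells rested on 1 cell led by fibroblast markers with 83% of the reads, and without both cells of that kind the ratio of type 2 over the others moved from 0.47 to 2.87. The ratio of type 1 over the others was -4.64 (-5.13 to -4.19), -2.24 without those cells, and turned to 1.72 without the next highest cell as well.

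*Spred1* (chromosome 2, 117121071 to 117182279, plus strand) was higher in both alveolar classes than in the others. It stood at 66 CPM (62.7 to 69.4) in type 1 cells, 131.8 CPM (123.2 to 140.998) in type 2 cells and 24.2 CPM (22.4 to 26.1) in the others, with medians of 0 and highest cells at 903, 693 and 557 CPM. Reads were in 13 of 45, 4 of 11 and 7 of 36 cells, so the groups overlapped. The log2 ratios over the others were 1.45 (1.31 to 1.58) for type 1 and 2.44 (2.30 to 2.59) for type 2, and 1.04 and 1.52 without the cell with most reads. Between the alveolar classes the ratio moved from -1 to -0.07 without 1 type 2 cell that held 59.5% of the type 2 reads. The type 1 ratio over the others was 1.31 without the cells led by fibroblast markers, and 0.90 without the highest cell as well, so it did not hold past 2-fold there, nor after thinning or with a mitochondrial limit of 0.10 (0.80). None of the 7 cells led by basal markers had a read.

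*Dusp6* (chromosome 10, 99263231 to 99267489, plus strand), the ERK phosphatase, had near summed levels in the 3 classes, with 40.4 CPM (37.9 to 43.1), 47.9 CPM (42.7 to 53.5) and 43.2 CPM (40.8 to 45.8) in type 1, type 2 and other cells. These came from few cells, since reads were in 12 of 45, 3 of 11 and 12 of 36 cells and each median was 0. The highest cells stood at 2586, 450.1 and 366 CPM. In type 2 cells 1 cell held 99% of the reads and in type 1 cells 1 cell held 50.4%. Its log2 ratios between classes were -0.24 (-0.43 to -0.05), -0.10 (-0.22 to 0.03) and 0.15 (-0.04 to 0.33) for type 1 over type 2, type 1 over the others and type 2 over the others. Without the cell with most reads they were -1.24, -1.10 and 0.66, and with a mitochondrial limit of 0.10 they were -3.21, -2.31 and 0.89. Cells led by basal markers had 135.05 CPM from 3 of 7 cells and those led by ciliated markers 2 reads in 12 cells.

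**Figure D1:**
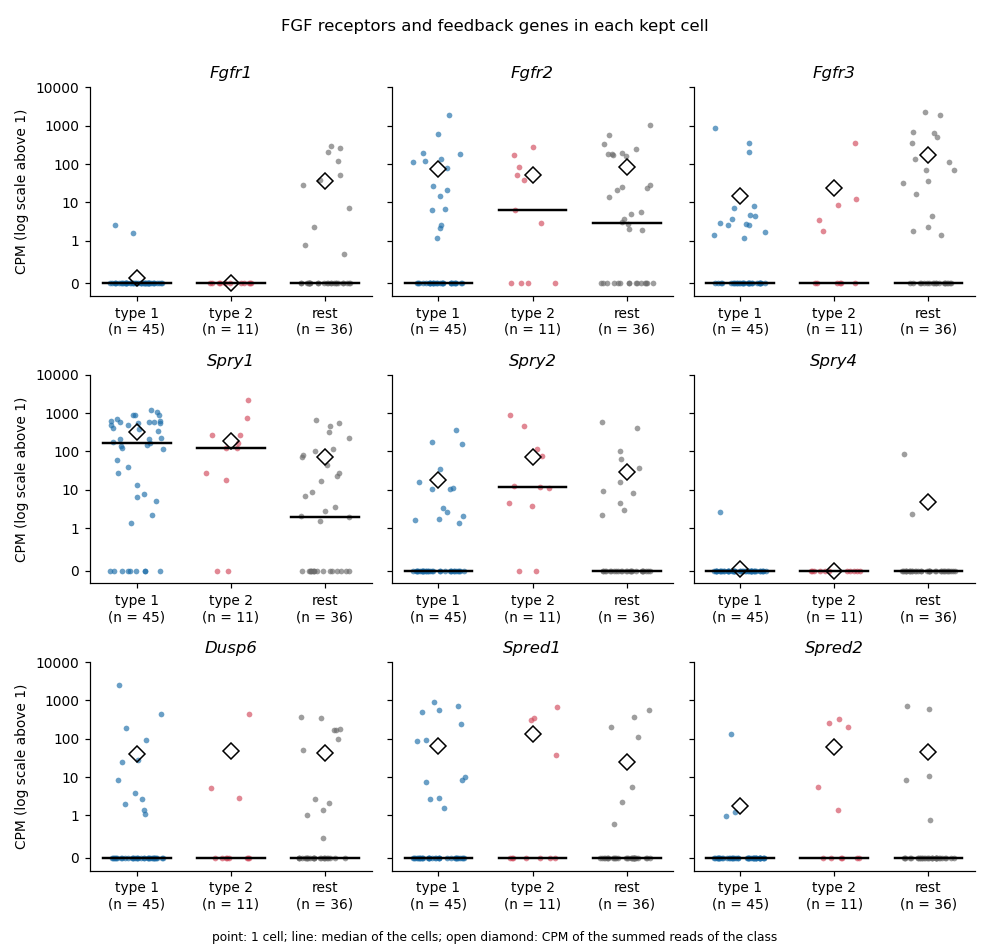
Level of each gene in each of the 92 kept cells, in CPM on a scale that is linear below 1 and logarithmic above, for type 1, type 2 and other cells, with 1 point per cell, a line at the median and an open diamond at the CPM of the summed reads. Most cells sit at 0 for most genes, and *Spry1* alone has a median above 100 CPM, at 167 in type 1 and 124.6 in type 2 cells.

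**Figure D2:**
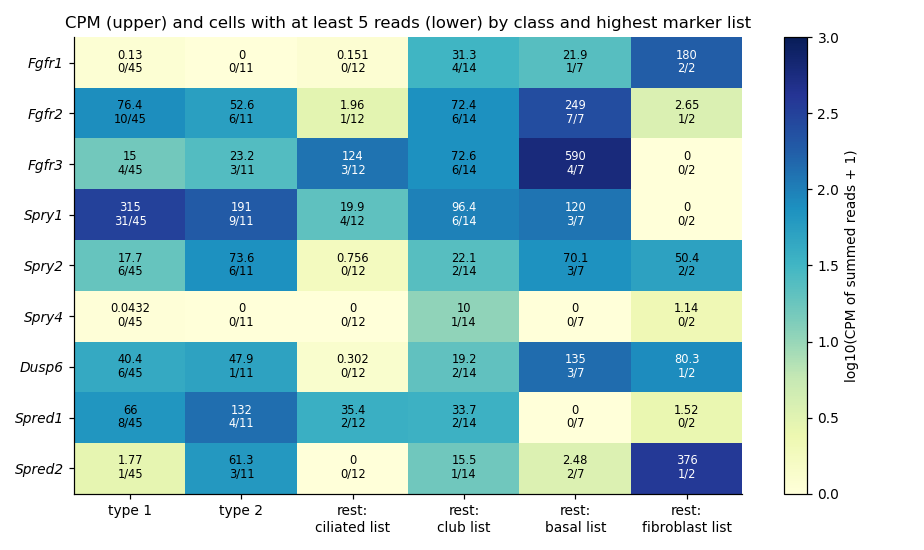
CPM of the summed reads (upper number, colour on a log10 scale) and cells with at least 5 reads of all cells (lower number) for each gene, in type 1 and type 2 cells and in the other cells by their highest marker list. The row of *Fgfr2* is deepest in the cells led by basal markers (249 CPM, 7 of 7 cells), and *Fgfr1* in the 2 led by fibroblast markers. The single other cell led by type 2 markers is not drawn.

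Levels between genes were also put per length, as CPM per kb of exon. Division by length is apt only if reads covered whole transcripts, which the sources used here do not say. The paper names a high-throughput C1 kit with cell bar codes and a first read much shorter than the second. The order per length may therefore not be an order of transcript numbers. On that scale *Spry1* led in type 1 cells at 108.2, followed by *Dusp6* (12.9), *Spred1* (9.72), *Spry2* (8.49), *Fgfr2* (7.63) and *Fgfr3* (2.10), with *Spred2*, *Fgfr1* and *Spry4* at 0.384 or less. In type 2 cells the order was *Spry1* (65.9), *Spry2* (35.3), *Spred1* (19.4), *Dusp6* (15.3), *Spred2* (13.3), *Fgfr2* (5.26) and *Fgfr3* (3.24). In the other cells *Fgfr3* and *Spry1* both stood at 24.9. Apart from *Spry1*, the neighbours in type 1 and type 2 cells cannot be ordered, because 1 cell held 25.8% or more of the reads of each. Without division by length *Spry1* also led in type 1 and type 2 cells, at 315 and 191 CPM, but other places differed. In type 1 cells *Fgfr2* (76.4 CPM) then stood above *Spry2* (17.7 CPM). In the others *Fgfr3* (178 CPM) then stood above *Spry1* (72.4 CPM).

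Depth differed between classes, so detection was also counted after each cell was thinned to 90000 reads. *Spry1* had at least 1 read in 32 of 45 type 1 cells (71.1%, 55.7 to 83.6%), 9 of 11 type 2 cells (81.8%, 48.2 to 97.7%) and 16 of 36 others (44.4%, 27.9 to 61.9%). *Spry2* had a read in 8 of 45 (17.8%, 8 to 32.1%), 7 of 11 (63.6%, 30.8 to 89.1%) and 9 of 36 (25%, 12.1 to 42.2%). *Fgfr2* was detected in 12, 5 and 16 cells of these classes, and *Fgfr3* in 6, 4 and 16. *Fgfr1* was in 0 of 45 type 1 cells, which allows a share of up to 6.67% when 3 cells are taken as the limit of a count of 0 (exact interval to 7.87%), in 0 of 11 type 2 cells, which allows up to 27.3% (28.5%), and in 8 of 36 others. These limits are for cells with a read at this depth, and 2 type 1 cells had reads of *Fgfr1* before thinning. *Dusp6* was found in 10, 1 and 7 cells, *Spred1* in 10, 4 and 5, *Spred2* in 1, 3 and 3, and *Spry4* in 0, 0 and 2.

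At equal depth, then, 1 of the 9 genes (*Spry1*) had reads in 50% or more of type 1 cells, 2 (*Spry1* and *Spry2*) in 50% or more of type 2 cells and none in 50% or more of the others. Over the 10382 genes tested, those with 100 reads or more in at least 5 kept cells, the shares that did so were 7.43%, 11% and 9.55%. A cell that lacks a gene cannot be told from a cell whose reads of it were missed.

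A few reads of a gene may not mark a cell that uses it. Of the 91 values of 1 to 4 reads over the 9 genes, 61 (67%) lay in a chip column with another cell of 50 or more reads of that gene, against 193 of 568 zero values (34%). These sums mix genes with few and many such columns, and the genes were not alike. The shares were 82.4% and 41.8% for *Fgfr3*, 33.3% and 10.1% for *Fgfr1*, and 84.6% and 53.8% for *Dusp6*. They were 76.9% and 64.6% for *Fgfr2*, 60% and 44.8% for *Spry2*, 50% and 42.6% for *Spred1*, and 20% and 17.7% for *Spred2*. The zero values had the larger share for *Spry1* (83.3% and 92.6%) and *Spry4* (0% and 2.25%). At a limit of 5 reads after thinning, *Spry1* stayed in 28 of 45 (62.2%, 46.5 to 76.2%), 7 of 11 and 9 of 36 cells, and *Spry2* in 3, 4 and 4. *Fgfr2* stayed in 8, 5 and 9 cells and *Fgfr3* in 3, 1 and 9.

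**Figure D3:**
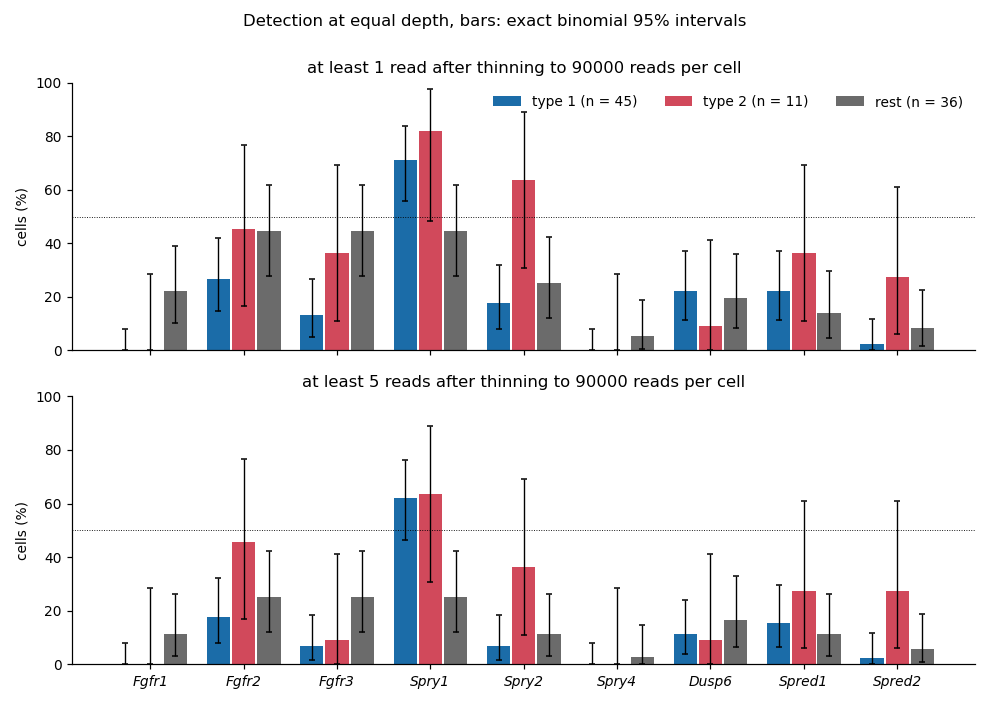
Share of cells, in percent, with at least 1 read (upper panel) and at least 5 reads (lower panel) of each gene after thinning to 90000 reads per cell, by class, with exact binomial 95% intervals and a dotted line at 50%. In type 1 cells *Spry1* alone lies above the line in both panels, at 71.1% and 62.2%, and the intervals of type 2 cells are wide because there are 11 of them.

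How far receptor and feedback reads shared cells depended on the class and on the reads asked for. With at least 1 read at equal depth, 11 of the 15 type 1 cells with a receptor also had a feedback gene, as did 8 of 8 type 2 cells and 20 of 27 others. Of all cells, with or without a receptor, 36 of 45 type 1, 11 of 11 type 2 and 25 of 36 others had a feedback gene. The 8 of 8 was thus fixed, the other shares lay near those of all cells, and no link can be read from them. With 5 or more reads, 9 of 45 type 1 cells had a receptor, 32 had a feedback gene, 3 had both and 7 had neither. In type 2 cells these counts were 5, 9, 5 and 2 of 11, and in the others 17, 19, 11 and 11 of 36. *Fgfr2* and *Spry1* were both at 5 or more reads in 2 type 1 cells, of 8 with *Fgfr2* and 28 with *Spry1*, and in 4 type 2 cells, of 5 and 7. Fewer than 5 reads do not show that a receptor was absent. No gene of 1531 with reads in 50% or more of kept cells reached a Spearman rho of 0.5 with *Spry1* over the 92 cells.

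A ratio was counted as past 2-fold only if it stayed so, in the same direction, without the cell with most reads of the gene. Between type 1 and type 2 cells, 2 of the 8 genes tested were past it, both lower in type 1 (*Spry2* and *Spred2*), beside 47.3% of all 10382 genes, 34.7% higher and 12.5% lower in type 1. Type 1 against the others gave 2 higher (*Spry1* and *Spred1*) and 3 lower (*Fgfr1*, *Fgfr3* and *Spred2*), beside 44.7% of all genes, 20.6% higher and 24.1% lower. Type 2 against the others gave 3 higher (*Spry1*, *Spry2* and *Spred1*) and 2 lower (*Fgfr1* and *Fgfr3*), beside 46.5% of all genes, 10.4% higher and 36.1% lower. For *Spry1* and *Spry2* the cell left out there was one of the others. Without the highest type 2 cell instead, type 2 stood at 137.7 and 49.3 CPM against 72.4 and 28.8 CPM. Neither gene was then past 2-fold. The median log2 ratios of the 8 genes were -0.44, -0.40 and 0.31 in these comparisons, beside 0.80, -0.01 and -1.02 over all genes tested, with a class without reads set at 3 reads. The counts in either direction are small against such backgrounds, and nothing particular to the 9 genes can be read from them. The comparisons share their classes and are not independent.

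**Figure D4:**
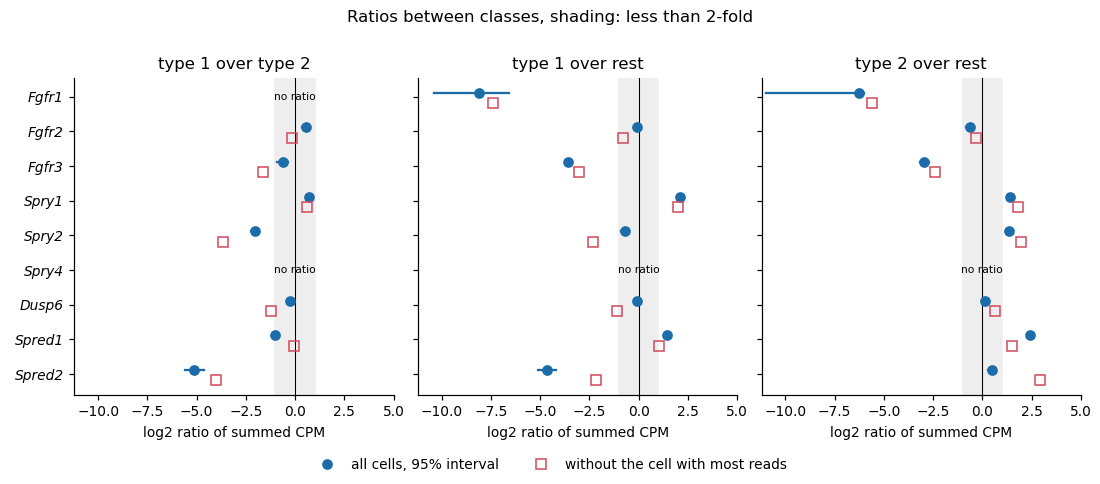
Log2 ratio of summed CPM between classes for each gene with its 95% counting interval (filled circle and line) and without the cell with most reads of the gene (open square), with shading for less than 2-fold. *Spred2* lies furthest from 0 between type 1 and type 2 cells (-5.11, and -4.02 without that cell), most intervals are narrower than their symbol, the interval of *Fgfr1* in type 2 over rest runs on beyond the panel, and "no ratio" marks genes with too few reads.

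The other genes of the pathway, taken from lists of known roles, were read against the same background, in which 34.7% of all genes were higher in type 1 than in type 2 cells, 12.5% lower and the median log2 ratio 0.80. Of 8 FGF ligand genes 4 were listed, and both that could be tested were higher in type 1 cells (median log2 ratio 5.55). *Fgf1*, a ligand of all FGF receptors, stood at 877 CPM (865 to 889) in type 1, 57 CPM (51.3 to 63.1) in type 2 and 44.6 CPM (42.1 to 47.1) in the other cells, with reads in 43 of 45 type 1 cells and a median of 581 CPM there against 5.60 and 4.16 CPM. *Fgf18* stood at 66.3 CPM in type 1 cells, from 18 of 45 cells, and was at least 143-fold higher than in type 2 cells, which had no read. *Fgf2* and *Fgf7*, the 2 ligands listed but not tested, had no reads in either alveolar class and were each found in 2 of the other cells.

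Of 7 co-receptors and receptor-like genes tested, 3 were higher in type 1 than in type 2 cells and none lower (median 4.05). They were *Fgfrl1*, a receptor without the kinase part, and the glypicans *Gpc1* and *Gpc3*, of which *Gpc3* was the most widely found, at 105.4 CPM against 0.309 CPM, with reads in 21 of 45 and 1 of 11 cells. Of 12 adaptors and Ras regulators, 5 were higher in type 1 cells, among them *Sos2*, *Gab1*, *Frs2* and *Nf1*, and 2 lower, *Gab2* and *Plcg1* (median 1.16). *Gab1*, a docking protein gene, had 146 CPM against 0.772 CPM and its relative *Gab2* 0.692 CPM against 124.3 CPM, with reads in 14 of 45 and 1 of 11 cells for *Gab1* and 2 of 45 and 4 of 11 for *Gab2*. In the Ras to ERK cascade the kinase genes *Braf* and *Rps6ka1* were higher in type 1 cells, at 76.8 against 23.6 CPM and 7 against 0.154 CPM. For *Rps6ka1* these were 162 reads against 1 read. The other cells had 20 CPM of *Braf* and 12.9 CPM of *Rps6ka1*, so *Rps6ka1* was not highest in type 1 cells.

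Of 10 further feedback genes, 4 were higher in type 1 cells and none lower (median 0.77). *Dusp7*, a cytoplasmic ERK phosphatase and so a relative of *Dusp6*, stood at 411 CPM (403 to 420) in type 1 cells, from 41 of 45 cells, at 1 read in type 2 cells and at 2.29 CPM in the others. The MAP kinase phosphatase gene *Dusp1* stood at 723 CPM (712 to 734) in type 1, 136.9 CPM (128.1 to 146) in type 2 and 1018 CPM in the other cells, and *Dusp10* and *Dusp16* rested on 7 and 11 type 1 cells. Of 8 ETS factors and target genes, 3 were higher in type 1 (*Elk4*, *Ets1* and *Ier3*) and 3 lower (*Etv5*, *Phlda1* and *Ccnd1*), with a median of -0.68. *Etv5*, an ETS factor known to maintain type 2 cells, had 0.476 CPM (0.237 to 0.851) in type 1, 451 CPM (435 to 467) in type 2 and 1.33 CPM in the other cells, with 5 or more reads in 0 of 45, 8 of 11 and 2 of 36 cells. *Ier3*, an early response gene, stood at 676 CPM in type 1 cells, 42.3 CPM in type 2 cells and 118.1 CPM in the others. The type 2 level of *Ier3* rested on 1 cell at 247 CPM, and the next highest type 2 cell stood at 5.75 CPM.

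Of 8 other receptor tyrosine kinases, *Egfr*, *Erbb2* and *Igf1r* were higher in type 1 than in type 2 cells and *Met*, the receptor of hepatocyte growth factor, was lower (median 0.13). *Egfr* had 106.4 CPM (102.2 to 110.6) against 0.463 CPM and *Met* 0.130 CPM against 96 CPM (88.6 to 103.9). The other cells had 23.8 CPM of *Egfr* and 125.4 CPM of *Met*, so *Met* was not highest in type 2 cells. The median type 1 cell had no read of *Egfr*. The type 2 level of *Met* came mostly from single cells at 1262 and 233 CPM, and the next highest type 2 cell stood at 23.8 CPM. Among the 10 stress genes 4 were lower in type 1 cells (*Jun*, *Egr1*, *Atf3* and *Ier2*) and none higher (median -1.14). Against the other cells, where 20.6% of all genes were higher and 24.1% lower, type 1 cells were higher for 2 of 2 ligands, 5 of 12 adaptors, 5 of 10 feedback genes, 2 of 8 ETS genes and 1 of 8 receptor kinases. They were lower for 1 of 7 co-receptors, 3 of 10 feedback genes, 3 of 8 ETS genes, 2 of 8 receptor kinases and 8 of 10 stress genes. Type 2 cells against the others, with backgrounds of 10.4% higher and 36.1% lower, were higher for 2 of 12 adaptors, 1 of 10 feedback genes, 1 of 8 ETS genes and 1 of 10 stress genes. They were lower for 2 of 7 co-receptors, 3 of 12 adaptors, 4 of 10 feedback genes, 4 of 8 ETS genes, 4 of 8 receptor kinases and 5 of 10 stress genes.

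**Figure D5:**
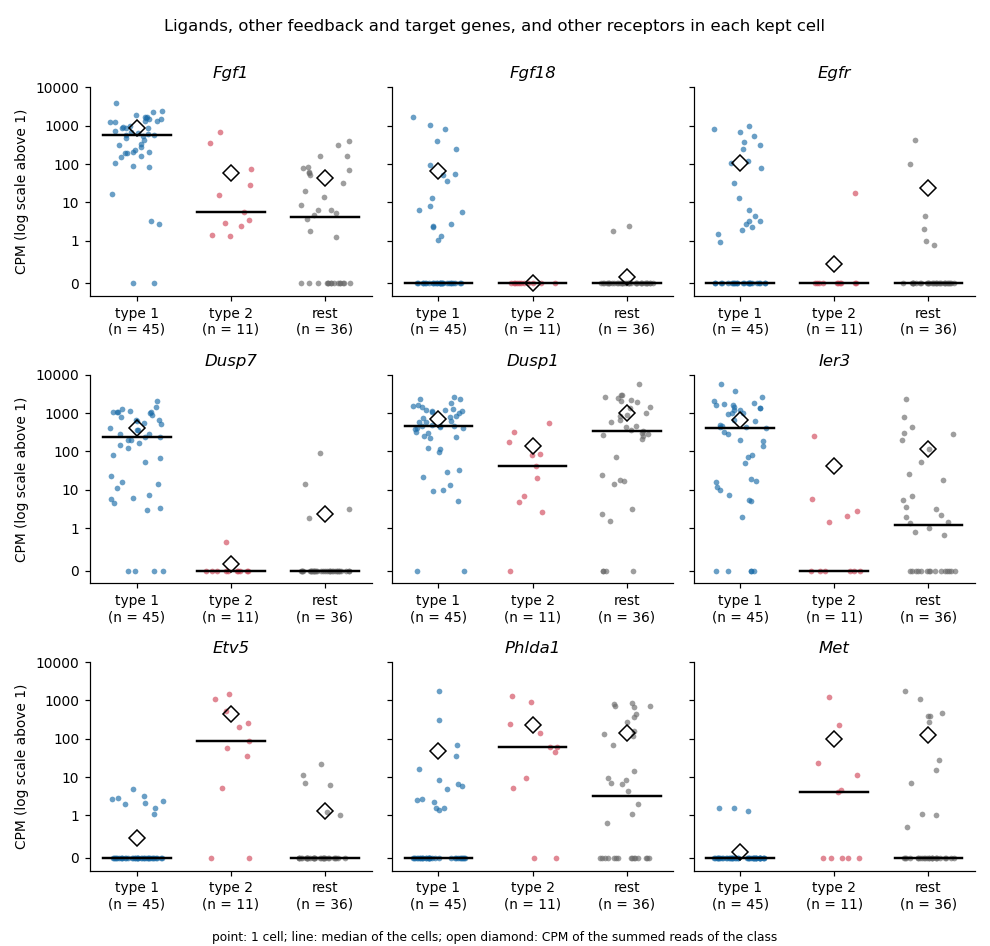
Levels of 9 further pathway genes in each kept cell, in CPM on a scale that is linear below 1 and logarithmic above, drawn as for the receptors and feedback genes, with 1 point per cell, a line at the median and a diamond at the CPM of the summed reads. *Fgf1* and *Dusp7* have medians of 581 and 239.8 CPM in type 1 cells, and *Etv5* has a median of 89.4 CPM in type 2 cells, with 9 of 11 above 0.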

How the data were processed

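Single cells of 1 mouse were captured and sequenced by the authors (paired reads), who trimmed reads with Trim Galore, checked them with FastQC, used HISAT2 for alignment to GRCm38 and featureCounts for counting per gene. Versions, annotation and strand setting are not given in the sources used here. The deposited table holds raw read counts for 17136 genes in 141 cells. Without strand, reads of *Fgfr1*, *Fgfr3* and *Spry1* cannot be told from those of genes annotated on the other strand over their exons.

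Counts were used as deposited. Cells with a mitochondrial share (37 genes) under 0.15 were kept, which left 92, the number the study analysed, at 142003 to 2170760 reads per cell. Doublets had been left out by the authors under a microscope and no doublet caller was run. CPM is the summed reads of a class per 1000000 summed reads. A ratio needed 100 reads in at least 5 cells. A class at 0 reads was set to 3 reads, and an interval of a ratio is the exact binomial interval of the 2 counts. Thinning drew 90000 reads per cell without replacement. With 1 sample there is no p-value. The genes and lists were chosen with earlier results of these data known. Named are all 9 genes, and from each list those past 2-fold between type 1 and type 2 cells, at most 4 per direction by size. *Fgf2* and *Fgf7* were named after their values were seen. An item of the cascade list is not reported here, and that list is given without counts. Marker lists of leukocytes, endothelial and neuroendocrine cells summed to at most 1.08, 19.9 and 0.648 CPM in any class. The ratio step was tested on simulated data, where it also passed many unchanged genes and missed or turned some changed ones, less often among genes with reads in 50% or more of cells, so a ratio past 2-fold is a description and not a test. Positions, gene types and upstream sequences are from RefSeq (GRCm38.p6) and exon lengths from GENCODE vM21. Alternatives changed the mitochondrial limit, the marker limits, the total, the mean, the depth, the fold and the chip columns. The work was done in Python 3.11.15 (matplotlib 3.10.9, pandas 2.3.3, scipy 1.17.1, numpy 2.4.6).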

Additional observations from a re-analysis of the deposited data

Results flagged for a closer look

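The 49 cells with a mitochondrial share of 0.15 or more entered no comparison, and the genes also had reads there, above the level of 3 reads (0.181 CPM). Their summed levels in these cells were 11.91 CPM for *Fgfr1*, 100.7 CPM for *Fgfr2*, 171.5 CPM for *Fgfr3*, 152 CPM for *Spry1*, 36.53 CPM for *Spry2*, 0.3628 CPM for *Spry4*, 18.75 CPM for *Dusp6*, 20.14 CPM for *Spred1* and 21.71 CPM for *Spred2*. By the same marker limits 19 of them were type 1, 16 type 2 and 14 other cells. *Spry1* stood at 248 CPM in the 19 type 1 cells, with 5 or more reads in 11, and at 27.5 CPM in the 16 type 2 cells, with 5 or more reads in 4. The 14 others had 99.1 CPM, with 5 or more reads in 2. *Spry2* stood at 20.6, 36.8 and 66.9 CPM in the removed type 1, type 2 and other cells, with 5 or more reads in 2, 1 and 1. For both genes type 2 thus stood below the others, the reverse of the kept cells. *Spred2* stood at 0.251 CPM and 81.2 CPM in the removed type 1 and type 2 cells, in 1 and 2 cells. *Fgfr3* stood at 184.6, 116.2 and 204.9 CPM in the removed type 1, type 2 and other cells, where the kept classes had 15, 23.2 and 178 CPM, and *Fgfr2* at 76.4, 236.2 and 3.85 CPM. With 5 or more reads *Fgfr3* was in 1, 1 and 2 and *Fgfr2* in 6, 4 and 1 of these cells. The difference between kept and removed cells was not tested. No group had 4 to 10 samples, so no sample was looked at for standing apart.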

How the results depend on the processing

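With a mitochondrial limit of 0.10 the type 1 class had 19 cells and the other cells numbered 25, and the *Fgfr2* and *Dusp6* ratios of type 1 over type 2 became -2.03 and -3.21. *Spry2* and *Spred2* stayed past 2-fold and lower in type 1 than in type 2 cells under all 13 alternatives, with log2 ratios of -3.25 to -1.02 and -8.91 to -4.07. Against the others, 3 genes instead of 5 were past 2-fold in type 1 cells after thinning (*Fgfr3*, *Spry1* and *Spred2*), and 3 (*Fgfr1*, *Fgfr3* and *Spry1*) without the cells led by fibroblast markers, an alternative chosen after seeing the data. For type 2 cells against the others the 5 became 2 with all deposited cells, 2 with totals without mitochondrial reads, 3 with the mean of the cells, 2 at 4-fold and 2 in the chip columns with a type 2 cell, where *Spry2* turned to -0.23. *Spry1* of type 1 over the others ran from 1.14 to 2.12 and *Fgfr3* from -4.13 to -1.63, while *Dusp6* and *Fgfr2* between alveolar classes changed sign. Genes with reads in 50% or more of type 2 cells numbered 1 instead of 2 at a minimum of 2 reads, 1 at 5 reads and 0 with all deposited cells. In the other cells they numbered 2 instead of 0 with all reads. Of 362 single-gene values under alternatives, 1 changed sign from a value past 2-fold, 146 moved by more than the counting interval and 215 did not. The cause was not tested. No paired analysis was possible because all cells are 1 sample. The 11 type 2 cells limit every share of that class.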
